A study of Mus musculus with 10 samples.

Results

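The genes described here encode the mitochondrial carrier family and the machinery that imports proteins into mitochondria. They were taken by symbol from the expression table, as every gene named Slc25a, Timm or Tomm followed by a number with a mean of at least 1 FPKM (fragments per kilobase of transcript and per mapped depth) over the 6 RNA-seq libraries. This gave 56 of the 11228 genes listed, 34 carriers and 22 import genes (13 Timm and 9 Tomm). All 56 matching symbols reached the minimum, so none fell just below it, and the nearest above it was Slc25a27 at 1.34 to 1.83 FPKM over the libraries.

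The libraries came from mouse myotubes, multinucleate cells formed by fusion of myoblasts, which had differentiated for 2 days in vitro. Charme, a muscle lncRNA, was targeted with the gapmer set GAP-2 (2 libraries) or the set GAP-2/3 (2 libraries), and controls received GAP-Scr (2 libraries). Gapmers are antisense oligonucleotides that direct RNase H to an RNA. Charme itself is not analysed here, so the groups rest on the labels. Nothing in the labels says that libraries of a group came from separate cultures, so the tests measure their spread, which may be technical.

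Carriers of the SLC25 family mostly span the inner mitochondrial membrane and exchange nucleotides, phosphate, carboxylates, amino acids and cofactors between matrix and cytosol. Proteins made in the cytosol enter mitochondria through the TOM complex of the outer membrane. The TIM23 complex then takes proteins with a presequence to the matrix, and the TIM22 complex, served by the small TIM chaperones, inserts the carriers themselves. In muscle the exchange of ADP and ATP across the inner membrane links respiration to contraction.

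Start regions of 5 of these genes are shown, those of the 3 most abundant carriers, another carrier and a TOM receptor. This carrier and the receptor were higher in the mean of both gapmer sets, compared with GAP-Scr. Each region is the RefSeq window of 300 bases (GRCm38.p6), 250 before and 50 after the annotated start. It is read 5′ to 3′ on the strand of the gene. Capitals mark matches on either strand to the NRF1 motif (GCGCA, any base, then GCGC) or to CCGGAAG, a motif of GABPA and other ETS factors. The windows are chr10:91123918-91124217 (minus strand), chr8:46211013-46211312 (minus strand), chrX:36795347-36795646 (plus strand), chr15:81360716-81361015 (minus strand) and chr15:79670618-79670917 (plus strand).
Slc25a3: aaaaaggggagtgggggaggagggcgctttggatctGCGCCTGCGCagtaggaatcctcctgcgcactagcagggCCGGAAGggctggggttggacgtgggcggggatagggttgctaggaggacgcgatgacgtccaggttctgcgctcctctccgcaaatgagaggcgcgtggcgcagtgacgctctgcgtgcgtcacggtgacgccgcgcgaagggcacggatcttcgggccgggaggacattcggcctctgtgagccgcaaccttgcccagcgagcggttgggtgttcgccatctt
Slc25a4: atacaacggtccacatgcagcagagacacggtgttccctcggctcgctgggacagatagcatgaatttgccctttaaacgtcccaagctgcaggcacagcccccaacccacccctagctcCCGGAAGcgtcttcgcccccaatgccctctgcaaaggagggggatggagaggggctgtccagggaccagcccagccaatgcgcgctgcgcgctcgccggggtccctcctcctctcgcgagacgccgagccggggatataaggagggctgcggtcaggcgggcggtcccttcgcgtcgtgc
Slc25a5: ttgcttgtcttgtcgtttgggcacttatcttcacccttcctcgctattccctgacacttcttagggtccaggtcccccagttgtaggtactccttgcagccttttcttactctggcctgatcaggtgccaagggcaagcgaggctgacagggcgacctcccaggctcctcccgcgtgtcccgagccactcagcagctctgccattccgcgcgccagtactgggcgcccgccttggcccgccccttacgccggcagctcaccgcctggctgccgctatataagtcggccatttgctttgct
Slc25a17: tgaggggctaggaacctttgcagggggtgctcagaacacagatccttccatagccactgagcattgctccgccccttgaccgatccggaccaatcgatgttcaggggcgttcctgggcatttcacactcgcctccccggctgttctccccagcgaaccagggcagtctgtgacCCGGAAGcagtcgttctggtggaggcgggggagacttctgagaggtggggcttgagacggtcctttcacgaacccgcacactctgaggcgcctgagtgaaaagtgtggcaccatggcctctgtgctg
Tomm22: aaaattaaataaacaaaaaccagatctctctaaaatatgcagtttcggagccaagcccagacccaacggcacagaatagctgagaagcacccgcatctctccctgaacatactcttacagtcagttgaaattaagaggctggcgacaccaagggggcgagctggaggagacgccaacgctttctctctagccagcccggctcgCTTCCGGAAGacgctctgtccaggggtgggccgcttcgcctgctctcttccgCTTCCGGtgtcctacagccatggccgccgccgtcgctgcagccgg

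Such windows were at hand for 44 of the 56 genes. The ETS motif CCGGAAG stood in 13 of the 44 (29.5%), against 21.0% of the 8437 genes of the expression table with a window and 9.93% of all 27025 genes with one. It was present in 3 of the 12 windows of genes past the threshold for both gapmer sets (Slc25a17, Slc25a4 and Tomm22) and in 10 of the other 32. The NRF1 motif stood in Slc25a3, Timm8b and Tomm20, 6.82% of the 44, against 12.1% of the table's genes. Slc25a5 had neither motif in its window, while its close relative Slc25a4 had 1 match to CCGGAAG and Tomm22 had 3, of which 2 overlap. The windows of Slc25a3 and Timm50 held AAGATGGCG, the motif of YY1, which is 4.5% of the 44, near the 3.86% of the table's genes. TGATGNAA, the composite element bound by ATF4, was in 0 of the 44, against 2.60% of the table's genes. TGACNNNGC, the antioxidant response element, was in 18.2% of the 44 and 17.3% of the table's genes, and CANCTG, an E-box form, in 47.7% and 47.2%. All motifs were searched on both strands, and a match describes letters in the window, not binding.

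The genes spanned a wide range of levels. Their median mean level was 20.5 FPKM, against 13.2 FPKM for all 10993 genes tested. At the top stood Slc25a5 and Slc25a4, the translocases that exchange ADP for ATP, and Slc25a3, the phosphate carrier, with means of 485, 457 and 444 FPKM. Together these 3 made up 70.8 to 72.4% of the summed carrier FPKM in the gapmer-treated libraries and 72.6 and 74.7% in GAP-Scr. The next most abundant were the small TOM subunit Tomm5 (182 FPKM) and the TOM receptor Tomm22 (138 FPKM). The lowest were Slc25a27, Slc25a35, Slc25a42 and Slc25a15, none of which reached 3 FPKM in any library. Summed over all 56 genes the level was 3087 and 3174 FPKM in GAP-2, 3229 and 3098 FPKM in GAP-2/3, and 2819.5 and 2941 FPKM in GAP-Scr. Of all FPKM these sums were 0.539 and 0.543% in the GAP-2 libraries, and 0.535 and 0.525% in the GAP-2/3 libraries. In the GAP-Scr libraries they were 0.507 and 0.509%, so the controls were lowest. The median FPKM of all genes tested, given below, was lowest in the controls too. The lower share is therefore not shown to be particular to the 56 genes.

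**Figure D1:**
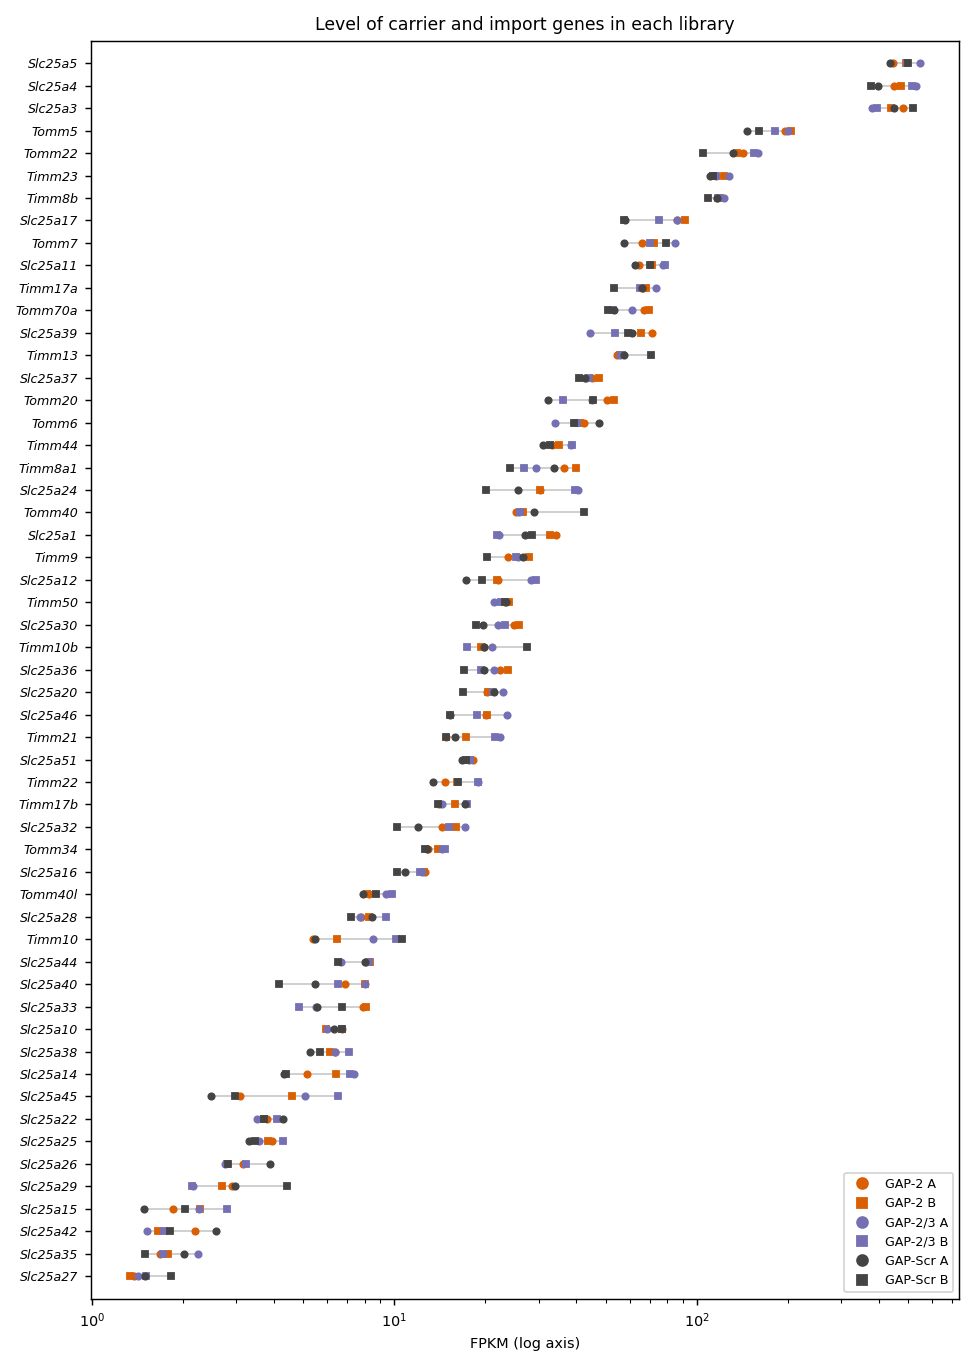
FPKM of the carrier and import genes (rows, ordered by mean; 1 gene is not shown) in each of the 6 libraries, on a log axis; colours mark the groups and symbols the replicate letters. Slc25a5, Slc25a4 and Slc25a3 stand at the top, and GAP-Scr replicate B lies at the edge for Tomm40 (42.5 FPKM) and Tomm22 (105 FPKM).

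Median FPKM of the genes tested was 12.3 to 13.8 per library, and the depth is unknown because FPKM values do not retain it. The ribosomal precursor Rn45s stood at 4089.99 FPKM in GAP-2 replicate A and 3387 FPKM in GAP-Scr replicate A, against 93.2 to 176 FPKM in the other 4 libraries. Marker calls are for the mean of both gapmer sets against GAP-Scr (limma). All 10 myotube markers were listed, with 9 lower and none higher. With GAP-2/3 alone Myh3, Mylpf, Tnnt3 and Myog did not pass, and with GAP-2 alone Myh8 did not. The summed level of the 10 was 9644 and 10141 FPKM in GAP-2, 11845 and 11943 FPKM in GAP-2/3, and 15579 and 16899 FPKM in GAP-Scr. Of 3 myoblast markers the 2 listed, Myf5 and Vcam1, were higher, though Vcam1 did not pass with GAP-2 alone (adjusted p = 0.322, limma). Their sums were 31.1 to 42.7 FPKM in the gapmer-treated libraries and 17.2 to 22.0 FPKM in GAP-Scr. Of 5 fibroblast markers 4 were listed, 2 higher and 1 lower. Pdgfra (higher) and Col1a1 (lower) did not pass with GAP-2 alone. The fibroblast sums were 1056 and 1256 FPKM in GAP-2, 796 and 917 FPKM in GAP-2/3, and 1196.5 and 1226 FPKM in GAP-Scr. Of 3 smooth muscle markers the 2 listed, Acta2 and Cnn1, were lower, though Cnn1 passed with neither set alone. Their sums were 1326 to 1527 FPKM in the gapmer-treated libraries and 2031 to 2259.7 FPKM in GAP-Scr. Of 4 macrophage marker symbols, 2 of which (Adgre1 and Emr1) name the same gene, Cd68 alone was listed, and higher. It had 2.43 and 3.54 FPKM in GAP-2, 0.962 and 0.834 FPKM in GAP-2/3, and 0.374 and 0.917 FPKM in GAP-Scr. With GAP-2/3 alone, which overlapped the controls, Cd68 did not pass (adjusted p = 0.328, limma). None of the 3 endothelial, 3 adipocyte or 2 brown fat markers was in the table used. Their part in the changes of the carriers and import genes was not tested. In bulk samples fewer cells of a type and less RNA per cell cannot be told apart.

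The first comparison set the mean of both gapmer sets against GAP-Scr, so a call for both sets need not hold in each set alone. Most carrier and import genes did not pass the test. Those that passed were mainly carriers with higher levels, though the share of carriers past it (32.4%) was near that of all genes (34.1%). Of the 56 genes 12 were higher and 2 lower, and 5 of the higher ones also passed as higher with each set alone. The share of all genes higher with each set alone is not given here, so the 5 have no background beside them. Of all 10993 genes 34.1% passed (24.5% higher and 9.57% lower), so the share among the 56 was not above the background. Changes are on the log2(FPKM + 1) scale, tested with limma and adjusted by Benjamini-Hochberg over all genes, and this scale understates changes of weakly expressed genes. The median change of the 56 genes was 0.12, against 0.10 for all genes, and 4 of the 56 (7.14%) changed by more than 0.5 in size, against 12.2% of all genes. In 20 of the 56 genes (35.7%) all 4 gapmer-treated libraries lay above both GAP-Scr libraries and in 3 (5.36%) below them, against 31.9% and 14.0% of all genes. With every library set to the same median, which removes the shift of all genes, 7 were higher and 2 lower. The share of all genes past the threshold under that setting is not given here. Dropping GAP-Scr replicate A turned the count of 14 into 22, dropping replicate B of GAP-2 into 9, and dropping replicate A of GAP-2/3 into 7. The carriers had 10 higher (29.4%) and 1 lower (2.94%) of 34, and the import genes 2 higher (9.09%) and 1 lower (4.55%) of 22. Over all genes 24.5% were higher and 9.57% lower. The classes described below are small, and their counts are to be read against these shares.

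**Figure D2:**
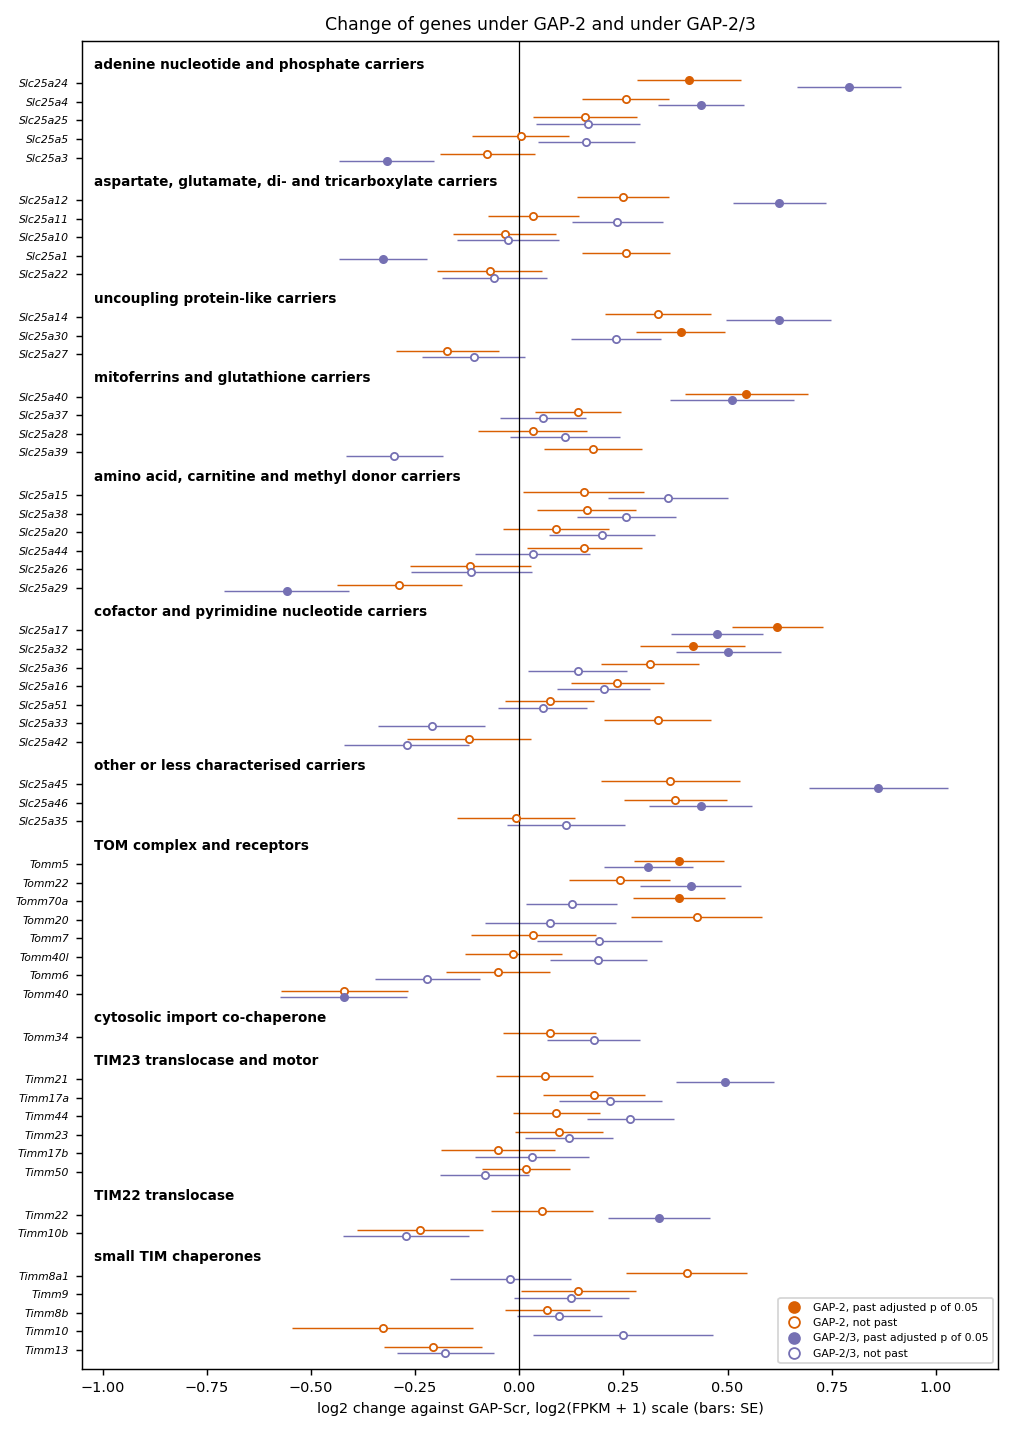
log2 change against GAP-Scr of the genes under GAP-2 and under GAP-2/3, grouped by role (1 gene is not shown), on the log2(FPKM + 1) scale; bars are SE and filled points passed an adjusted p of 0.05 (limma). Most points lie within 0.5 of 0, both sets share the same GAP-Scr libraries, and Slc25a1, Slc25a33 and Slc25a39 fall on opposite sides of 0 under GAP-2 and GAP-2/3.

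Among the 5 adenine nucleotide and phosphate carriers, 2 rose, Slc25a24 and Slc25a4. Slc25a24, a calcium-regulated carrier that exchanges ATP-Mg for phosphate, had 30.4 and 30.5 FPKM in GAP-2, 40.5 and 39.6 FPKM in GAP-2/3, and 25.7 and 20.0 FPKM in GAP-Scr. The groups did not overlap, and GAP-2/3 was the highest. The change for both sets was 0.60 ± 0.11 (SE; limma adjusted p = 0.00225), and it passed under all 16 alternatives. Slc25a4, the adenine nucleotide translocase of heart and skeletal muscle, had 449.9 and 472 FPKM in GAP-2, 532 and 514 FPKM in GAP-2/3, and 397 and 375 FPKM in GAP-Scr. Again no gapmer-treated library overlapped the controls, and the change was 0.35 ± 0.09 (adjusted p = 0.0132, limma). The call was lost without replicate B of GAP-2 (0.33), without replicate A of GAP-2/3 (0.33) and with one median (0.25).

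The more widely expressed translocase Slc25a5 had 445 and 491 FPKM in GAP-2, 547 and 496 FPKM in GAP-2/3, and 435 and 499.5 FPKM in GAP-Scr. Its groups overlapped, and the 95% interval of its change for both sets ran from -0.14 to 0.30 (adjusted p = 0.550, limma). Within each library the ratio of Slc25a4 to Slc25a5 was 1.01 and 0.963 in the GAP-2 libraries, 0.972 and 1.04 in the GAP-2/3 libraries, and 0.913 and 0.752 in the GAP-Scr libraries. All 4 gapmer-treated libraries were above both controls in this ratio, which was chosen after the values were seen and was not tested. The phosphate carrier Slc25a3 had 479.7 and 438 FPKM in GAP-2, 380.1 and 395 FPKM in GAP-2/3, and 449 and 520.4 FPKM in GAP-Scr. GAP-2 overlapped the controls, while both GAP-2/3 libraries lay below them. Slc25a25, a relative of Slc25a24, lay at 3.31 to 4.30 FPKM over all libraries and did not pass.

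Of the 5 carriers of aspartate, glutamate and di- or tricarboxylates, 1 rose for both sets. Slc25a12, the calcium-stimulated aspartate/glutamate carrier of the malate-aspartate shuttle, had 22.1 and 22.0 FPKM in GAP-2, 28.3 and 29.5 FPKM in GAP-2/3, and 17.3 and 19.5 FPKM in GAP-Scr. Every gapmer-treated library was above both controls and GAP-2/3 stood highest, with a change of 0.44 ± 0.10 (adjusted p = 0.00602, limma). Without both libraries highest in Rn45s it was 0.35 and did not pass. Slc25a11, the oxoglutarate carrier of the same shuttle, had 64.6 and 71.0 FPKM in GAP-2, 77.3 and 78.7 FPKM in GAP-2/3, and 62.3 and 70.1 FPKM in GAP-Scr and did not pass. The dicarboxylate carrier Slc25a10 lay at 5.93 to 6.74 FPKM and the glutamate carrier Slc25a22 at 3.53 to 4.31 FPKM, with overlapping groups. The citrate carrier Slc25a1 differed between the gapmer sets and is described with their comparison.

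Of the 3 uncoupling protein-like carriers Slc25a14 and Slc25a30 rose. Slc25a14 had 5.17 and 6.40 FPKM in GAP-2, 7.36 and 7.16 FPKM in GAP-2/3, and 4.33 and 4.40 FPKM in GAP-Scr. All gapmer-treated libraries were above the controls, and the change of 0.48 ± 0.11 (adjusted p = 0.00750, limma) passed under all 16 alternatives. Slc25a30 had 24.9 and 25.8 FPKM in GAP-2, 22.0 and 23.3 FPKM in GAP-2/3, and 19.6 and 18.7 FPKM in GAP-Scr, without overlap with the controls, a change of 0.31 ± 0.09 (adjusted p = 0.0251, limma). That call was lost on leaving out any of 5 single libraries, GAP-2 replicate A (0.32) or B (0.30), GAP-2/3 replicate A (0.33) or B (0.29), or GAP-Scr replicate B (0.28), and without both libraries highest in Rn45s (0.36) or with one median (0.22). Slc25a27 did not pass.

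Among the 4 mitoferrins and glutathione carriers, Slc25a40 passed for both sets. Slc25a40, a close relative of the glutathione carrier Slc25a39, had 6.87 and 8.01 FPKM in GAP-2, 7.98 and 6.52 FPKM in GAP-2/3, and 5.46 and 4.15 FPKM in GAP-Scr. No gapmer-treated library overlapped the controls, and the change was 0.53 ± 0.13 (adjusted p = 0.00981, limma). It did not pass without GAP-2/3 replicate A (0.46) or GAP-Scr replicate B (0.36). The mitoferrins, which import iron, did not pass: Slc25a37 lay at 41.0 to 47.5 FPKM and Slc25a28 at 7.22 to 9.37 FPKM over all libraries.

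Of the 8 carriers of cofactors and pyrimidine nucleotides 2 rose. Slc25a17, a carrier of CoA, FAD and other nucleotides that sits in peroxisomes and not in mitochondria, had 86.2 and 91.8 FPKM in GAP-2, 86.3 and 74.8 FPKM in GAP-2/3, and 57.8 and 57.3 FPKM in GAP-Scr. All 4 gapmer-treated libraries lay above the controls, which nearly coincided, and the change was 0.55 ± 0.10 (adjusted p = 0.00188, limma). Slc25a32, the folate and FAD carrier of the inner membrane, had 14.3 and 16.0 FPKM in GAP-2, 17.2 and 15.1 FPKM in GAP-2/3, and 12.0 and 10.2 FPKM in GAP-Scr, without overlap with the controls, a change of 0.46 ± 0.11 (adjusted p = 0.00882, limma). Both calls passed under all 16 alternatives. Among the others, the NAD carrier Slc25a51 lay at 16.8 to 18.2 FPKM and did not pass.

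Among the 6 amino acid, carnitine and methyl donor carriers 1 fell and none rose. Slc25a29, a carrier of basic amino acids, had 2.92 and 2.69 FPKM in GAP-2, 2.16 and 2.15 FPKM in GAP-2/3, and 2.98 and 4.42 FPKM in GAP-Scr. The gapmer-treated libraries lay below both controls, though GAP-2 replicate A was close to GAP-Scr replicate A, and the change was -0.42 ± 0.13 (adjusted p = 0.0272, limma). It was -0.20 without GAP-Scr replicate B (adjusted p = 0.244) and did not pass without replicate B of GAP-2 (-0.40), GAP-2/3 replicate A (-0.42) or GAP-2/3 replicate B (-0.42). The carnitine/acylcarnitine carrier Slc25a20, which brings fatty acids to β-oxidation, had 20.2 and 20.4 FPKM in GAP-2, 22.8 and 21.2 FPKM in GAP-2/3, and 21.4 and 16.9 FPKM in GAP-Scr and did not pass. Neither did the glycine carrier Slc25a38, the ornithine carrier Slc25a15, the branched-chain amino acid carrier Slc25a44 or the S-adenosylmethionine carrier Slc25a26.

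Of the 3 remaining carriers 2 rose. Slc25a45, a less characterised carrier, had 3.09 and 4.60 FPKM in GAP-2, 5.08 and 6.52 FPKM in GAP-2/3, and 2.47 and 2.99 FPKM in GAP-Scr. Its mean over the gapmer-treated libraries was 1.77 times that of the controls, and the change was 0.61 ± 0.14 (adjusted p = 0.00845, limma), past the threshold under the 15 alternatives that tested it. Slc25a46, an outer membrane protein involved in mitochondrial shape, had 20.1 and 20.3 FPKM in GAP-2, 23.6 and 18.8 FPKM in GAP-2/3, and 15.3 and 15.3 FPKM in GAP-Scr, without overlap with the controls, a change of 0.41 ± 0.11 (adjusted p = 0.0147, limma) that did not pass with one median (0.32).

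**Figure D3:**
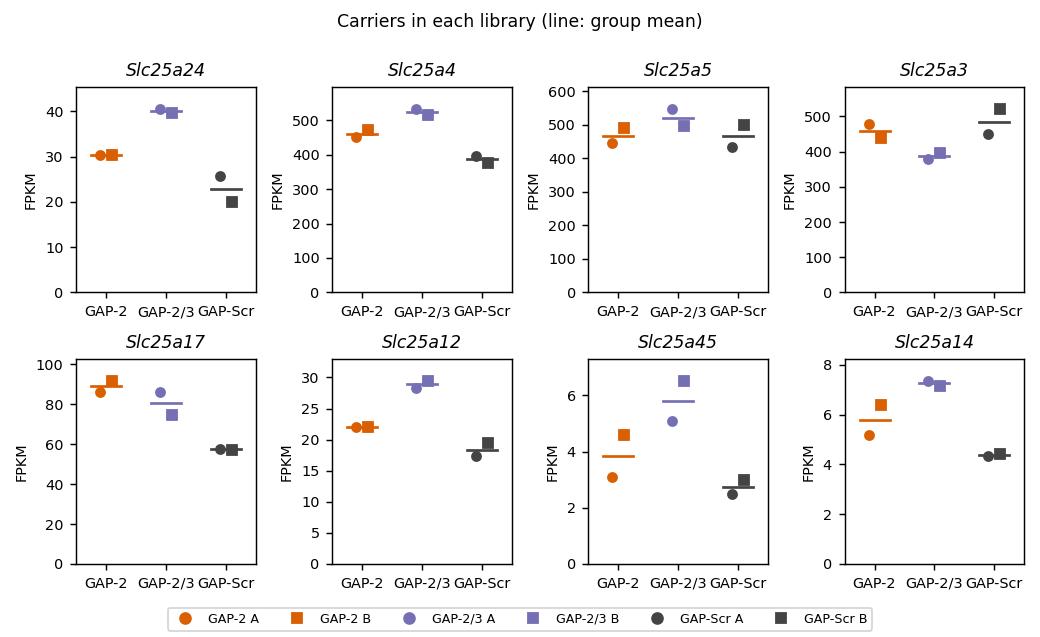
FPKM of 8 carriers in each library, with a line at the group mean and each vertical axis starting at 0. Slc25a24, Slc25a4, Slc25a17, Slc25a12, Slc25a45 and Slc25a14 have all 4 gapmer-treated libraries above both controls, while Slc25a5 overlaps and Slc25a3 is lowest in GAP-2/3.

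Of the 8 genes of the TOM complex and its receptors, Tomm5 and Tomm22 rose and Tomm40 fell. Tomm5, a small subunit, had 196 and 205 FPKM in GAP-2, 200.1 and 181 FPKM in GAP-2/3, and 147 and 161 FPKM in GAP-Scr, a change of 0.35 ± 0.09 (adjusted p = 0.0156, limma). The gapmer-treated libraries did not overlap the controls, but the call was lost without replicate B of GAP-2 (0.33), without replicate A of GAP-2/3 (0.31), without both libraries highest in Rn45s (0.30) and with one median (0.25). Tomm22, the receptor that also organises the complex, had 143 and 136 FPKM in GAP-2, 159.6 and 155 FPKM in GAP-2/3, and 132 and 105 FPKM in GAP-Scr, a change of 0.33 ± 0.10 (adjusted p = 0.0325, limma). It was 0.16 without GAP-Scr replicate B (adjusted p = 0.226) and 0.23 with one median, and was lost on dropping replicate A (0.31) or B (0.34) of GAP-2 or, of GAP-2/3, replicate A (0.32) or B (0.34).

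Tomm40, the β-barrel that forms the channel, had 25.4 and 26.7 FPKM in GAP-2, 26.0 and 26.0 FPKM in GAP-2/3, and 29.0 and 42.5 FPKM in GAP-Scr. All gapmer-treated libraries were below both controls, and the change was -0.42 ± 0.13 (adjusted p = 0.0294, limma). It was -0.15 without GAP-Scr replicate B (adjusted p = 0.298) and did not pass without GAP-2 replicate A (-0.40), GAP-2/3 replicate A (-0.42) or GAP-2/3 replicate B (-0.42). Its paralogue Tomm40l lay at 7.87 to 9.82 FPKM with overlapping groups. Tomm70a, the receptor for carriers, had 67.0 and 69.6 FPKM in GAP-2, 61.2 and 53.0 FPKM in GAP-2/3, and 53.3 and 51.0 FPKM in GAP-Scr, and did not pass in the comparison of both sets. Tomm20, the presequence receptor, had 50.4 and 53.3 FPKM in GAP-2, 45.2 and 36.1 FPKM in GAP-2/3, and 32.3 and 45.3 FPKM in GAP-Scr and passed in no comparison, its controls lying far apart. Tomm6, Tomm7 and the cytosolic co-chaperone Tomm34 passed in none either.

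In the inner membrane translocases no gene passed for both sets. The TIM23 channel Timm23 had 116 and 123 FPKM in GAP-2, 128 and 115 FPKM in GAP-2/3, and 110.3 and 113 FPKM in GAP-Scr, and the 95% interval of its change was -0.09 to 0.31. The receptor Timm50 lay at 21.3 to 23.9 FPKM over all libraries. Timm44, which tethers the import motor, had 33.2 and 35.0 FPKM in GAP-2, 38.5 and 38.8 FPKM in GAP-2/3, and 31.1 and 32.8 FPKM in GAP-Scr, without overlap between gapmer-treated and control libraries but with adjusted p = 0.146 (limma). Timm17a had 66.6 and 68.1 FPKM in GAP-2, 73.5 and 65.2 FPKM in GAP-2/3, and 65.9 and 53.4 FPKM in GAP-Scr, and Timm17b lay at 14.0 to 17.4 FPKM. The 5 small TIM chaperones Timm8a1, Timm8b, Timm9, Timm10 and Timm13 passed in no comparison. Timm8b lay at 109 to 123 FPKM, while Timm10, with 5.40 and 6.47 FPKM in GAP-2, 8.54 and 10.1 FPKM in GAP-2/3, and 5.49 and 10.6 FPKM in GAP-Scr, had the largest SE of the 56 genes.

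**Figure D4:**
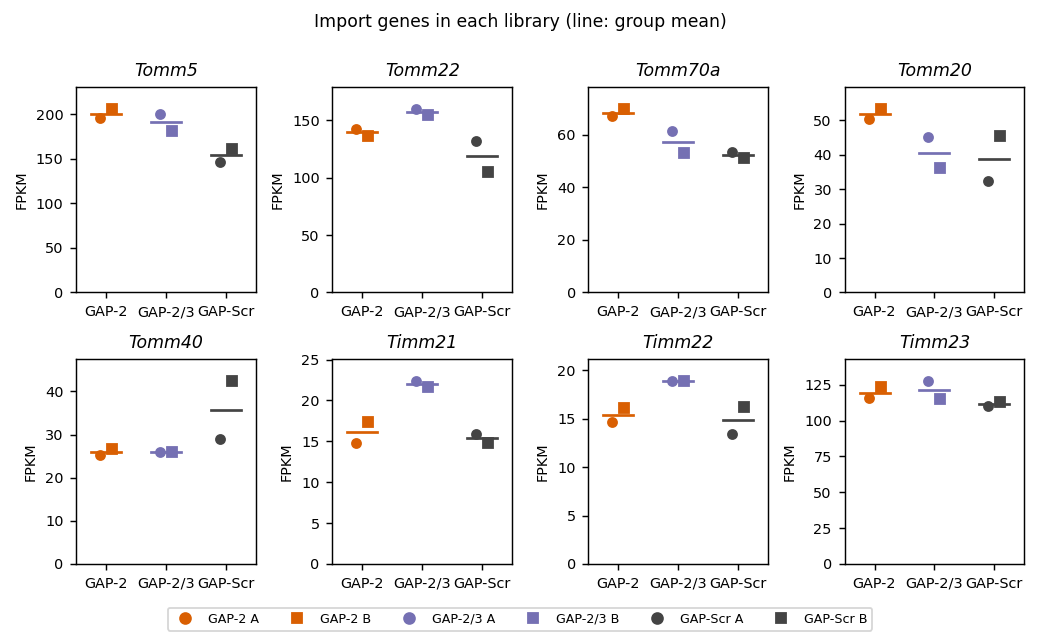
FPKM of 8 import genes in each library, with a line at the group mean and each vertical axis starting at 0. Tomm5 and Tomm22 have all gapmer-treated libraries above both controls, Tomm40 has them below, with GAP-Scr replicate B at 42.5 FPKM, and Timm21 and Timm22 are highest in GAP-2/3.

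Each gapmer set was then compared alone with GAP-Scr, and both comparisons use the same controls. With GAP-2/3, 13 of the 56 genes were higher and 4 lower, where 39.3% of all genes passed (28.0% higher and 11.3% lower). After setting one median for all libraries the split was 8 higher and 5 lower, and after quantile normalization 8 and 6. Dropping replicate A of GAP-2/3 turned the count of 17 into 4, and dropping its replicate B into 11. The highest changes were those of Slc25a45 (0.86 ± 0.17, adjusted p = 0.00264), Slc25a24 (0.79 ± 0.13, adjusted p = 0.000839), Slc25a12 (0.62 ± 0.11, adjusted p = 0.00162) and Slc25a14 (0.62 ± 0.13, adjusted p = 0.00339), by limma, and these 4 passed under every alternative that tested them. Slc25a40 (0.51 ± 0.15, adjusted p = 0.0185), Slc25a32 (0.50 ± 0.13, adjusted p = 0.00958) and Slc25a17 (0.47 ± 0.11, adjusted p = 0.00647) followed, by limma, and were 0.38, 0.41 and 0.37 and not past without GAP-2/3 replicate A. Slc25a40 was also lost without GAP-Scr replicate B (0.35) and with one median (0.41).

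The falls under GAP-2/3 were those of Slc25a29 (-0.56 ± 0.15, adjusted p = 0.0133), Tomm40 (-0.42 ± 0.15, adjusted p = 0.0456), Slc25a1 (-0.33 ± 0.11, adjusted p = 0.0297) and Slc25a3 (-0.32 ± 0.11, adjusted p = 0.0435), by limma. Without GAP-Scr replicate B they were -0.33, -0.15, -0.29 and -0.21 and none passed. Each was also lost on leaving out either GAP-2/3 library, and Slc25a1 and Slc25a3 on leaving out either GAP-2 library, which changes the shared spread but not the groups compared. Slc25a1 was also lost without both libraries highest in Rn45s (-0.36).

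Timm21 was also higher under GAP-2/3, and Timm22 passed narrowly. Timm21, which links the TIM23 complex to the TOM complex and the respiratory chain, had 14.8 and 17.3 FPKM in GAP-2, 22.4 and 21.6 FPKM in GAP-2/3, and 15.8 and 14.8 FPKM in GAP-Scr. GAP-2/3 stood above the controls without overlap, with a change of 0.49 ± 0.12 (adjusted p = 0.00731, limma) that was 0.47 and not past without GAP-2/3 replicate A. Timm22, the channel through which carriers enter the inner membrane, had 14.7 and 16.1 FPKM in GAP-2, 18.9 and 18.9 FPKM in GAP-2/3, and 13.4 and 16.2 FPKM in GAP-Scr, and again GAP-2/3 lay above both controls. Its change was 0.34 ± 0.12 (adjusted p = 0.0470, limma), and the call was lost under 9 of 17 alternatives, among them leaving out any 1 library other than GAP-Scr replicate B (0.33 without GAP-2/3 replicate A), one median (0.23) and leaving out both libraries highest in Rn45s (0.21). The other 4 higher genes were Slc25a4 (0.44 ± 0.10, adjusted p = 0.00733), Slc25a46 (0.44 ± 0.12, adjusted p = 0.0171), Tomm22 (0.41 ± 0.12, adjusted p = 0.0196) and Tomm5 (0.31 ± 0.11, adjusted p = 0.0394), by limma. Without GAP-2/3 replicate A they were 0.41, 0.28, 0.39 and 0.24 and none passed. With one median Slc25a46 (0.33), Tomm22 (0.30) and Tomm5 (0.19) did not pass. Tomm22 was also lost without GAP-2/3 replicate B (0.43) or GAP-Scr replicate B (0.25), and Tomm5 without any 1 library other than GAP-Scr replicate B and without both libraries highest in Rn45s (0.24). Timm10b, a partner of Timm22, had 19.9 and 19.4 FPKM in GAP-2, 21.1 and 17.4 FPKM in GAP-2/3, and 19.8 and 27.4 FPKM in GAP-Scr and did not pass.

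GAP-2 alone gave 7 higher and no lower gene, where 14.6% of all genes passed (10.4% higher and 4.18% lower). The higher genes were Slc25a17 (0.62 ± 0.11, adjusted p = 0.00427), Slc25a40 (0.55 ± 0.15, adjusted p = 0.0313), Slc25a32 (0.42 ± 0.13, adjusted p = 0.0466), Slc25a24 (0.41 ± 0.13, adjusted p = 0.0491), Slc25a30 (0.39 ± 0.11, adjusted p = 0.0340), Tomm5 (0.38 ± 0.11, adjusted p = 0.0354) and Tomm70a (0.38 ± 0.11, adjusted p = 0.0390), by limma. Slc25a17, the highest change, passed under every alternative but 1, being 0.57 without GAP-2 replicate B (adjusted p = 0.0546). The other 6 were each lost without either GAP-2 library, without either GAP-2/3 library and with one median, where Slc25a17 alone passed. Without GAP-Scr replicate B Slc25a24 was 0.24 (adjusted p = 0.194), and it was also lost at a pseudocount of 0.1 (0.42). Slc25a40 (0.38), Slc25a32 (0.31), Slc25a30 (0.35) and Tomm70a (0.35) did not pass without that control library either, nor Tomm5 without GAP-Scr replicate A (0.32). Without both libraries highest in Rn45s the calls of Slc25a30 (0.45), Tomm5 (0.35) and Tomm70a (0.44) were lost. Under quantile normalization 2 genes passed. Dropping replicate B of GAP-2 turned the count of 7 into 0, and dropping its replicate A or either GAP-2/3 library into 1. It became 4 without replicate B of GAP-Scr and 14 (9 higher and 5 lower) without its replicate A. The difference of Tomm70a between the gapmer sets did not pass (adjusted p = 0.162, limma).

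The direct comparison of GAP-2/3 with GAP-2 tests where the sets differ. It gave 1 higher and 3 lower of the 56 genes, where 10.1% of all genes passed (6.50% higher and 3.65% lower). Slc25a1, which exports citrate for fatty acid and sterol synthesis in the cytosol, had 22.2 and 21.8 FPKM in GAP-2/3, against 34.3 and 32.6 FPKM in GAP-2, and 27.1 and 28.6 FPKM in GAP-Scr. The controls lay between the sets and no groups overlapped, with a change of -0.58 ± 0.11 (adjusted p = 0.00584, limma). Slc25a33, a pyrimidine nucleotide carrier, had 5.50 and 4.84 FPKM in GAP-2/3, against 7.89 and 8.07 FPKM in GAP-2, and 5.56 and 6.75 FPKM in GAP-Scr (change -0.54 ± 0.13, adjusted p = 0.0218, limma). The glutathione carrier Slc25a39 had 44.4 and 53.5 FPKM in GAP-2/3, against 71.0 and 65.6 FPKM in GAP-2, and 61.2 and 59.2 FPKM in GAP-Scr (change -0.48 ± 0.12, adjusted p = 0.0254, limma). Neither Slc25a33 nor Slc25a39 passed in any comparison with GAP-Scr. Timm21 was the higher gene (change 0.43 ± 0.12, adjusted p = 0.0380, limma).

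All 4 calls depended on single libraries. Dropping replicate A of GAP-2 or either GAP-2/3 library left 0 calls, and dropping replicate B of GAP-2 left 2. The count was 9 and 10 without GAP-Scr replicates A and B, which changes the shared spread but not the groups compared. Slc25a1 was lost without GAP-2 replicate A (-0.55), GAP-2/3 replicate A (-0.59) or GAP-2/3 replicate B (-0.57). Slc25a33 (-0.62 to -0.47), Slc25a39 (-0.61 to -0.34) and Timm21 (0.33 to 0.54) were lost without any 1 library of GAP-2 or GAP-2/3. Without both libraries highest in Rn45s Slc25a39 (-0.42) and Timm21 (0.33) did not pass, nor did Timm21 with one median (0.39).

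**Figure D5:**
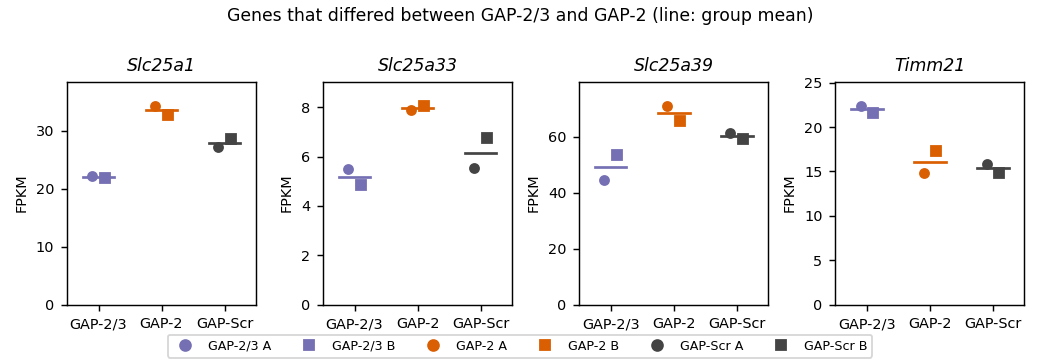
FPKM in each library of the 4 genes that passed between GAP-2/3 and GAP-2, with a line at the group mean and each vertical axis starting at 0. GAP-2/3 is lowest and GAP-2 highest for Slc25a1 and Slc25a39, and GAP-2/3 is highest for Timm21.

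Partners of these genes outside the families were counted from lists. Of 28 genes of the import motor, sorting, processing and assembly, 6 were higher (21.4%) and 2 lower (7.14%) for both sets, with a median change of 0.15. Over all genes tested 24.5% were higher and 9.57% lower, with a median of 0.10, so these shares were not above the background. The matrix chaperonin Hspd1, which folds imported proteins, rose by 0.56 ± 0.10 (adjusted p = 0.00274, limma). Immp1l, a subunit of the inner membrane peptidase, rose by 0.51 ± 0.10 (adjusted p = 0.00369, limma). Pmpca, a subunit of the presequence peptidase, fell by 0.35 ± 0.09 (adjusted p = 0.0131, limma), and Immp2l, the other subunit of the inner membrane peptidase, fell by 0.45 ± 0.13 (adjusted p = 0.0188, limma). Pmpca did not pass without GAP-2 replicate B (-0.34), nor Immp2l without GAP-2/3 replicate B (-0.35) or GAP-Scr replicate B (-0.37). Immp2l had 2.33 and 2.26 FPKM in GAP-2, 3.31 and 2.26 FPKM in GAP-2/3, and 3.53 and 4.11 FPKM in GAP-Scr.

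Among 20 other transporters of the mitochondrial membranes 5 were higher and 2 lower for both sets, with a median change of 0.20. That is 35% past the threshold, near the 34.1% of all genes. Under GAP-2/3 10 of the 20 were higher and 2 lower, where 39.3% of all genes passed, and under GAP-2 2 were higher and 1 lower, where 14.6% passed. Ucp2, an uncoupling protein of the same carrier family under another name, had 20.4 and 19.5 FPKM in GAP-2, 24.1 and 26.6 FPKM in GAP-2/3, and 33.3 and 36.3 FPKM in GAP-Scr. The groups did not overlap, and it fell by 0.61 ± 0.10 (adjusted p = 0.00115, limma), opposite in direction to Slc25a14 and Slc25a30. Ccdc109b, the inhibitory subunit of the calcium uniporter (Mcub), rose by 0.56 ± 0.11 (adjusted p = 0.00292, limma). The serine transporter Sfxn1 rose by 0.47 ± 0.10 (adjusted p = 0.00602, limma).

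Of 8 genes of the cristae organizing system 1 was higher (12.5%, against 24.5% of all genes) and none lower. This was Apoo, with a rise of 0.60 ± 0.13 (adjusted p = 0.00482, limma). Of 13 regulators of mitochondrial gene expression 1 was higher and 1 lower (7.69% each), against 24.5% and 9.57% of all genes. The mitochondrial RNA polymerase Polrmt fell by 0.49 ± 0.12 (adjusted p = 0.00805, limma). Gabpa, an ETS factor of nuclear genes for mitochondria, rose by 0.30 ± 0.10 (adjusted p = 0.0399, limma), a call lost with one median (0.21) and without any 1 library other than GAP-Scr replicate A, with values of 0.19 to 0.33.

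The ChIRP-seq assay captured Charme on chromatin with antisense probes and read the DNA bound to it, and the authors gave 798 merged peaks. Read as GRCm38 positions, 0 of the 56 gene spans overlapped a peak by 1 bp or more, and 6 (10.7%) had one within 100 kb. Over the 10473 genes of the expression table placed the same way, 1.8% overlapped a peak and 9.42% had one within 100 kb. Among the 56 genes the nearest peak was 9.92 kb from Slc25a17, with the authors' score of 2263, rank 516 of the 798 peaks. The median distance was 1132 kb over the 56 genes and 914 kb over the genes of the table. The build of the peak list is not settled. The submitters' processing notes name mm9, while a peak lies beyond the end of the X chromosome of that build. Were the peaks placed on mm9, the overlaps, distances and shares given here would not hold.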

How the data were processed

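The authors deposited FPKM values, a column for each library, in one table. The submitters' processing notes name bedtools, Bowtie2, CASAVA, Cuffdiff, Cufflinks, cutadapt, FastQC, MACS, TopHat2, Trimmomatic and the build mm9, without roles or versions. Depth is unknown, so no count model or counting interval was used. The authors also deposited a score for each merged ChIRP peak, used here to rank peaks. Genes averaging 1 FPKM or more entered the test (10993, with 235 left out). On the log2(FPKM + 1) scale, limma 3.58.1 (R 4.3.3) fitted all 3 groups at once, trend on intensity, without covariates. Benjamini-Hochberg adjustment covered every gene tested, at a threshold of 0.05. The fit was tested on simulated data. All 56 symbols matched RefSeq (GRCm38.p6), the source of the promoter windows. Slc25a25, Slc25a26, Slc25a35, Slc25a11 and Tomm6 overlap another gene of the table. The library kit is stranded per the labels, but whether counting used strand is not stated, so reads of these 5 are less certain. Reads of Slc25a5 may be shared with its annotated pseudogene. Values of 1 gene of the families and 1 of the lists are not reported here, though the counts include them. The genes and lists were chosen with earlier results of these data known. Fold changes with their tests are given for the 8 highest and 8 lowest changes past the threshold in each comparison, for every gene past it for both sets or between the sets, and for up to 4 genes of each other list; intervals of 2 genes that did not pass, the adjusted p of Timm44 and Tomm70a, and the other 5 genes past the threshold for GAP-2/3, were chosen after their values were seen. The alternatives changed the scaling (quantile or one median), pseudocount (0.1), filter (none, or 5 FPKM), trend and threshold (0.1). They also changed the groups in the fit, replicate block and libraries. A call past 0.05 passes at the threshold of 0.1 in any case, so that alternative could not end a call.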

Additional observations from a re-analysis of the deposited data

Results flagged for a closer look

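These genes differed between the 2 gapmer sets by the test of that difference (GAP-2/3 against GAP-2, limma). Slc25a1 differed by -0.58 (adjusted p = 0.00584), lying below both controls in GAP-2/3 and above both in GAP-2. For Slc25a33 the difference was -0.54 (adjusted p = 0.0218). Slc25a39 differed by -0.48 (adjusted p = 0.0254). Timm21 differed by 0.43 (adjusted p = 0.0380) and was higher in both GAP-2/3 libraries than in the other 4.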

How the results depend on the processing

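Groups of 2 libraries with modest changes limit what can be called. None of the called changes recomputed under the alternatives turned its direction in any of them (each gene given with a change and an adjusted p past the threshold). Quantile normalization ended the calls of Slc25a30, Tomm22 and Gabpa for both sets, of Slc25a40, Slc25a46, Timm22, Tomm22 and Tomm5 for GAP-2/3, of Timm21 between the sets, and every GAP-2 call but those of Slc25a17 and Tomm5. Fitting no intensity trend ended Tomm40, Slc25a3 and Tomm5 for GAP-2/3 and Tomm70a and Slc25a24 for GAP-2. Fitting only the groups compared ended Slc25a1, Slc25a3, Timm22 and Tomm5 for GAP-2/3 and every GAP-2 call but that of Slc25a17. The pseudocount of 0.1 ended Slc25a24 for GAP-2. For GAP-2 against GAP-Scr the count of 7 became 2 under quantile normalization, 1 with one median, 1 with only the groups compared and 13 at a threshold of 0.1, and 0 to 14 without 1 library. For GAP-2/3 against GAP-Scr the count of 17 was 4 to 19 without 1 library. For both sets the count of 14 became 9 with one median and 7 to 22 without 1 library; a fit with only the groups compared holds the same libraries and was not run. For GAP-2/3 against GAP-2 the count of 4 became 10 with only the groups compared, 8 at a threshold of 0.1 and 0 to 10 without 1 library. Counts of all genes under the alternatives are not given here, so these counts do not show a change particular to the 56 genes. A lone library left in a group was taken to vary like the other groups. Beyond the fewer libraries, the cause was not tested.

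The groups share the letters A and B, but nothing says that these pair libraries. Deviations of the A libraries correlated at 0.36 between GAP-2 and GAP-Scr, -0.18 between GAP-2/3 and GAP-2 and -0.13 between GAP-2/3 and GAP-Scr. With a replicate block the counts were 10 for GAP-2, 18 for GAP-2/3, 14 for both sets and 8 between the sets. With the letters of GAP-2/3 crossed, chosen after the data were seen, the replicate block gave 9, 19, 16 and 5. Under a peak the count of 0 became 1 with gene spans widened by 10 kb.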
